A study of Mus musculus with 2 samples.

Results

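Granzymes are serine proteases that cytotoxic T cells and natural killer cells store in secretory granules, and perforin forms the pores through which they reach the cytosol of a target cell. Mouse granzymes lie in 3 loci. Gzma and Gzmk, tryptases that cut after basic residues, are neighbours on chromosome 13. Gzmb, which cuts after aspartate, stands with Gzmc, Gzmd, Gzme, Gzmf and Gzmg on chromosome 14 in the block that also holds mast cell chymases. Gzmm, which cuts after methionine or leucine, lies on chromosome 10 beside neutrophil-type elastase genes, and Prf1, the perforin gene, lies elsewhere on that chromosome. Resting thymocytes are not known as killer cells, so the family is usually used as a mark of cytotoxic differentiation.

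The 10 genes described here are these 9 granzymes and Prf1. They were taken by name from the probes of the array and hold 12 of its 55681 non-control probes. The family was chosen by the signal of these same probes on these same arrays, in which Gzma was bright and its relatives were dim, so their levels are a description and carry no test. The samples are 2 single-colour arrays of untreated P5424 cells, a mouse T-cell line labelled as Rag2 and P53 knockout. The medium was RPMI1640, to which fetal bovine serum and 2-mercaptoethanol were added. Both arrays belong to 1 group (n = 2) with no second condition, so nothing here compares treatments, genotypes or cell types. The labels do not say whether the 2 RNA samples were separate cultures, so the spread between replicate 1 and replicate 2 may be technical.

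Signals are intensity units after background correction by the scanner software. A probe is called detected when it carried the software's mark for signal well above background on each array, and a gene when any of its probes did. Probes with that mark numbered 23649 on replicate 1 and 22923 on replicate 2. Among 308 spots without a matching transcript, the negative controls, the median was 6.55 units on replicate 1 and 7.50 on replicate 2. Their highest values were 15.1 and 101 units, of which the 101 lay alone, the next being 17.6. No spot was saturated. All 12 immature T cell markers used as a check on the label, among them Cd3e, Cd3g, Cd3d, Cd4, Cd8a and Cd8b1, were detected. All 7 defining natural killer markers (Ncr1, Klrb1c, Klrd1, Klrk1, Klrc1, Klre1 and Il2rb) were not well above background on either array. They are part of a list of 15 natural killer receptor genes, of which 5 others were detected. Of 8 mast cell and myeloid markers, 2 were detected, namely Tpsb2, by 1 of its 2 probes, and Elane. Of all named genes on the array, 51.7% were detected.

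The probes decide which transcript each value stands for, so their sequences are shown first. Probes of Gzma, Gzmk and Gzmm hold the polyadenylation signal AATAAA, given here in capitals within 30 of their 60 bases, 5′ to 3′ as on the array. The Gzma stretch matters most, because it occurs in both probes that read this gene, and the Gzmk stretch belongs to the neighbour that gave no such signal. The Gzme probe at base 863, which is not printed, holds AATAAA as well.
Gzma: tgtctgatcacaAATAAAatcaacttgaat
Gzmk: cgttcatcctaAATAAAatgtggacgtctg
Gzmm: cctctgaggaccAATAAAtcctgatatatc

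The Gzma probe covers chr13:113884035-113884094 of mm9 on the minus strand and starts at base 818 of NM_010370. A second probe, to which the files give no gene and no description, lies 6 bases further along at chr13:113884029-113884088 on the same strand and shares a run of 54 bases with it. Apart from that overlap, the longest run the Gzma probe shares with any other probe of the array is 17 bases, with an intergenic probe on chromosome 3 that was not detected. It shares 9 bases or fewer in a row with any other granzyme or perforin probe. Probes were compared with other probes and not with transcripts, so these runs do not show which transcripts the probe can bind.

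The chromosome 14 granzymes are close copies of each other, and their probes are given whole to show how far they can be told apart. Capitals mark the longest run shared by the Gzme and Gzmn probes (18 bases) and by the Gzmf and Gzmg probes (8 bases).
Gzme: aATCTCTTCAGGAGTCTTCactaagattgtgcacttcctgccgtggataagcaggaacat
Gzmn: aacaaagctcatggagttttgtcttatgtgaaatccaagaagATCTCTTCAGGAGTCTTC
Gzmf: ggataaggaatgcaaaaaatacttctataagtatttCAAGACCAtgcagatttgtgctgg
Gzmg: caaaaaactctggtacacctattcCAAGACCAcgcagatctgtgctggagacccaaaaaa
Gzmd: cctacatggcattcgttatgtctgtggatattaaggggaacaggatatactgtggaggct

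The Gzmf and Gzmg probes, slid along each other without gaps, agree at 38 bases. The files list the printed Gzme probe under the Gzmd transcript as well, so this probe cannot assign signal to either gene alone.

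Of the 12 granzyme and perforin probes, 3 were detected on both arrays (25.0%), against 40.1% of all probes on the array. By gene, 3 of 10 were detected, against 51.7% of all named genes. Gzma, Gzmm and Prf1 were the 3, which leaves 2 of 9 granzymes (22.2%). A looser mark, signal that is positive and significant over background on both arrays, was carried by 8 of the 12 probes, against 60.3% of all probes. Because these values chose the members, the shares describe the set and test nothing.

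Gzma was measured at 83363 units on replicate 1 and 76079 units on replicate 2. Its log2 value relative to the 75th percentile of each array was 8.00 ± 0.01 (SD, n = 2), and the arrays differed by -0.01 on the log2 scale (replicate 2 minus replicate 1). The software's own error estimate for that spot was 10.0% of the signal on both arrays. Both readings were far above every negative control spot, and they lay closer together than the software's error. The unnamed probe over the same site read 75023 and 67396 units, or 7.84 ± 0.03 on the log2 scale, so both probes gave strong signal on both arrays. Since they share most of their bases, the second reading is not independent of the first.

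Gzmk, the partner tryptase whose nearest probe lies 77.7 kb from the Gzma probe, was not well above background with either of its probes. The probe at base 1244 of its transcript (chr13:113961816-113961875, minus strand) read 7.19 units on replicate 1 and 8.46 on replicate 2. Both are surrogates, floor values that the software set in place of a dim reading. Their closeness to the negative control medians therefore measures no level. The background-subtracted signals were -8.06 and -7.37 units, and the software marked neither as significant over background. The second probe, at base 18 of NM_008196, maps to 113970774 to 113971087 and so spreads 60 bases over 314 bases of the genome, as a probe across a spliced junction does. It read 29.3 and 28.8 units, which the software called significant on both arrays but well above background on neither. Its background-subtracted signal on replicate 1 was 32.1 units, and the lowest of any probe marked well above background there was 32.6. The 2 Gzmk probes therefore disagree on whether any signal exceeded background, and neither gives more than an upper bound.

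Gzmb, the granzyme most used as a mark of activated killer cells, was well above background on 1 array only. Its probe (chr14:56877916-56877975, minus strand, base 1135 of NM_013542) read 17.6 units on replicate 1 and 44.1 on replicate 2. After background subtraction these were 15.9 and 39.4 units, and the limit for the well-above mark on replicate 2 was 37.0 units. The replicate 2 reading was just inside that limit. The signals differed by 26.4 units, or 2.32 times the combined software error of the pair. For the other 11 member probes that ratio was at most 0.998. Over the array, 3.47% of probes were well above background on 1 array and not on the other.

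The other 5 members of the chromosome 14 cluster had no reading well above background. Gzmc, read by its probe at 56850307 to 56850366, gave 34.1 units on replicate 1 and 23.5 on replicate 2. Gzmg, at 56776063 to 56776122, gave 17.2 and 18.3 units. Gzme, with its probe at base 863 of the transcript, gave 13.4 and 13.5 units. The software called these 3 probes significant over background on both arrays, and they lay above the negative control medians but below the mark for detection. Gzmd gave 6.44 and 7.18 units, Gzmf gave 7.32 and 8.53 units, and the printed Gzme probe gave 7.02 and 8.32 units. These 3 were significant on neither array. Their values are surrogates too, so their closeness to the negative controls measures no level.

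Gzmn, a further granzyme of the same cluster that is not among the 10, is printed on 10 spots of each array. Its spots ranged from 5.76 to 7.44 units on replicate 1 with a median of 6.43, and from 6.28 to 17.4 units on replicate 2 with a median of 7.66. None was well above background, and 1 spot, on replicate 2, was significant over background. Surrogate values stand among the spots of both arrays, so the ranges are not the spread of background noise alone. The replicate 2 range includes 2 spots marked as outliers. Gm4022, annotated from a testis cDNA described as granzyme F but placed on the plus strand, gave 11.1 and 12.1 units, also not well above background.

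Gzmm and Prf1 were both detected at modest signal. Gzmm, whose probe starts at base 1226 of NM_008504 (chr10:79157946-79158005, plus strand), read 148 units on replicate 1 and 125 on replicate 2, or -1.19 ± 0.08 on the log2 scale (n = 2). Prf1, read at base 1983 of NM_011073 (chr10:60766941-60767000, plus strand), gave 150 and 132 units, or -1.15 ± 0.04. Both probes therefore lay below the 75th percentile of each array and above the highest negative control spot. For each gene the difference between arrays was smaller than the combined software error. Levels of different probes are not set against each other, because probes differ in how well they bind.

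**Figure D1:**
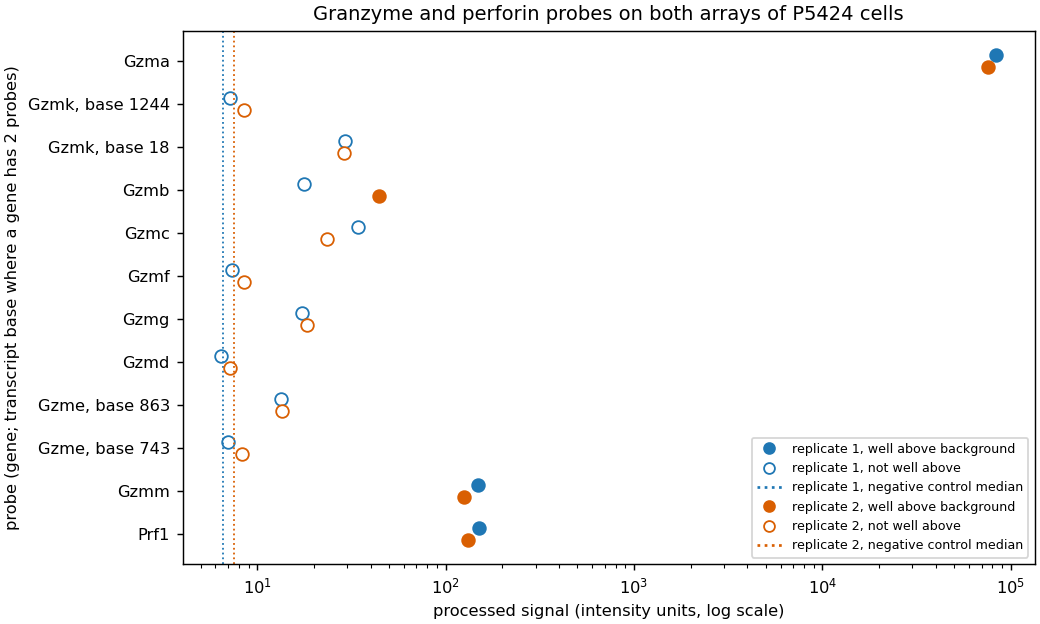
Processed signal of the 12 granzyme and perforin probes on both arrays, in intensity units on a log axis, with filled points well above background and open points not; dotted lines are the medians of the negative control spots of each array. Gzma stands at 83363 and 76079 units, Gzmm and Prf1 between 125 and 150 units, and the Gzmk, Gzmb, Gzmc, Gzmd, Gzme, Gzmf and Gzmg probes between 6.44 and 44.1 units. Points of Gzmd, Gzmf, Gzmk at base 1244 and Gzme at base 743 are surrogate floor values.

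The repeat readings of the 3 detected probes were close to each other. Over all 22321 detected probes, the median absolute difference between the arrays was 0.18 on the log2 scale, and 257 of them (1.15%) differed by more than 2-fold. Gzma differed by -0.01, Prf1 by -0.06 and Gzmm by -0.12. None of the 3 passed 2-fold. Among the 2711 detected probes with 100 to 200 units, the range that holds Gzmm and Prf1, the median absolute difference was 0.26, and among the 1836 probes of 20000 units or more it was 0.10. Gzmb, which was not detected, differed by 1.44.

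**Figure D2:**
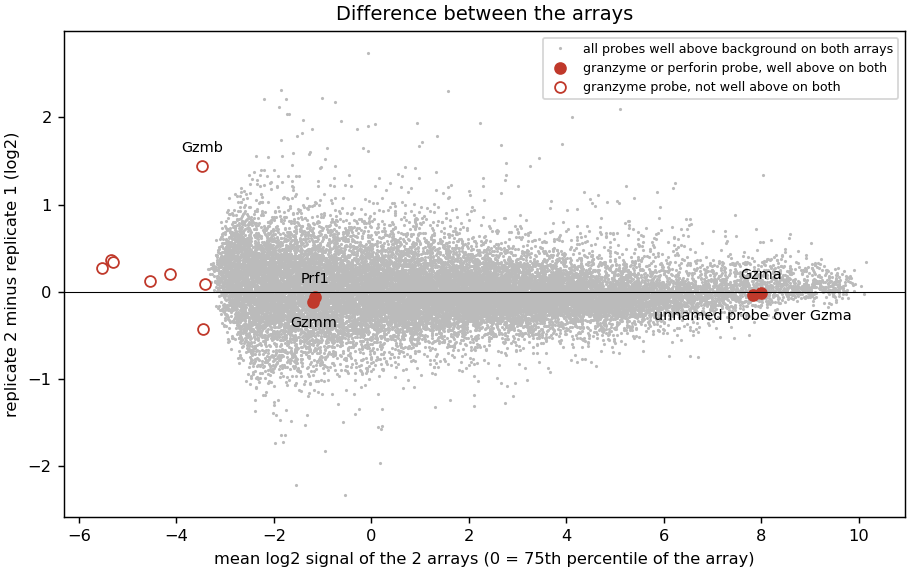
Difference between the arrays (replicate 2 minus replicate 1, log2) against the mean log2 signal of the 2 arrays, where 0 is the 75th percentile. Grey points are the 22321 probes well above background on both arrays, filled red points are Gzma, the unnamed probe over Gzma, Gzmm and Prf1, and open red points are granzyme probes not well above background on both arrays. The filled points lie within 0.12 of 0, while Gzmb lies at 1.44.

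By locus, 4 of 11 neighbouring probes within 100 kb of Gzma or Gzmk were detected (36.4%, against 40.1% over the array). The 4 include the unnamed probe that overlaps the Gzma probe. Outside the unnamed overlapping probe, 7 genes or sequences within 100 kb of Gzma had no probe well above background on both arrays. Cdc20b, the nearest named gene, had 2 such probes, at 32.3 and 35.4 units for one and 6.76 and 7.95 units for the other on replicates 1 and 2. The values of the second are surrogates. Gpx8, a glutathione peroxidase, gave 15.7 and 13.5 units. Gm10735, 1700084D21Rik, the transcript ENSMUST00000053398, an unnamed probe and Gzmk completed the set, with signals of at most 29.3 units. Mcidas, a regulator of multiciliated cells that lies 93.4 kb away, was the exception in that window, at 8331 and 8192 units. Its probe shares runs of 20 bases with detected probes of other genes, and up to 41 bases without gaps. Whether its signal is that of Mcidas alone was not tested. Further out on the Gzmk side, Esm1, an endothelial cell proteoglycan, gave 884 and 1152 units, and Snx18, a sorting nexin, gave 2236 and 1643 units. The gene 4921509O07Rik on that side was not well above background. A long intergenic RNA probe 88.0 kb past Gzmk, singled out after its values were seen, gave 10415 and 8853 units. Within 500 kb of Gzma or Gzmk, 13 of 37 neighbouring probes (35.1%, against 40.1% over the array) and 8 of 14 named genes (57.1%, against 51.7%) were detected. Long intergenic RNA probes make up 13 of the 37, of which 2 were detected.

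The chromosome 14 cluster spans 142 kb between its outermost probes and lies inside a longer block with few detected genes. From Cma1, a mast cell chymase, to Gzmb, a stretch of 316 kb, the array holds 16 named genes. Of these, 1 was detected, against 51.7% of all named genes. The 16 include the 6 cluster members, which were chosen with their low signal known, so the count is a description. The detected gene was Cma2, another chymase gene, at -1.77 ± 0.05 on the log2 scale and 97.5 and 85.4 units. Mcpt1, Mcpt2, Mcpt4 and Mcpt8, mast cell proteases of the block, and Ctsg, cathepsin G, were among those not well above background. With the rest of that block counted among the neighbours, 29 of 55 probes (52.7%, against 40.1% over the array) within 500 kb of the cluster were detected. Atp12a and Rnf17, the nearest named genes past Gzmb, were not well above background. The nearest detected named gene on the Gzmb side was Cenpj, a centriole protein gene, at 2529 and 2021 units. Between Gzmb and Cenpj, 16.9 kb past the Gzmb probe, Gm6115 gave 3240 and 4137 units, and a neighbouring unnamed sequence gave 21140 and 23399 units. These last probes were singled out after their values were seen.

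Within 500 kb of Gzmm, 46 of 65 neighbouring probes (70.8%, against 40.1% over the array) and 34 of 46 named genes (73.9%, against 51.7%) were detected. Its nearest neighbours were Cdc34, a ubiquitin-conjugating enzyme, at 32489 and 30532 units, and Bsg, the basigin gene, at 5688 and 7829 units. Tpgs1, Madcam1, Hcn2 and Polrmt, the other named genes nearest to it, were detected as well. Of the listed myeloid proteases in that window, Prss57 was detected at 519 and 675 units and Elane, neutrophil elastase, at 115 and 144 units. Prtn3, at 25.0 and 25.0 units, and Cfd, at 9.75 and 9.2 units, were not well above background.

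Around Prf1, 13 of 48 neighbouring probes (27.1%, against 40.1% over the array) were detected, the lowest share of the 4 loci. Of the 48, 20 are long intergenic RNA probes on the same interval, of which 1 was detected. The share by probe therefore counts that interval many times. By gene, 9 of 18 were detected, close to the 51.7% of all named genes. Nodal, a developmental signalling factor, was well above background on replicate 1 only, at 46.6 and 35.1 units. Eif4ebp2, a translation repressor, was detected at 12637 and 13495 units, and Sgpl1, a sphingosine phosphate lyase, at 1836 and 1459 units. Adamts14, a metalloprotease, was detected with 1 of its 2 probes, at 223 and 191 units. Tbata was detected with 1 of its 5 probes, at 52.5 and 53.9 units. Pald1 was not well above background. An unnamed transcript 6.01 kb past the Prf1 probe, singled out after its values were seen, gave 8986 and 6211 units.

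**Figure D3:**
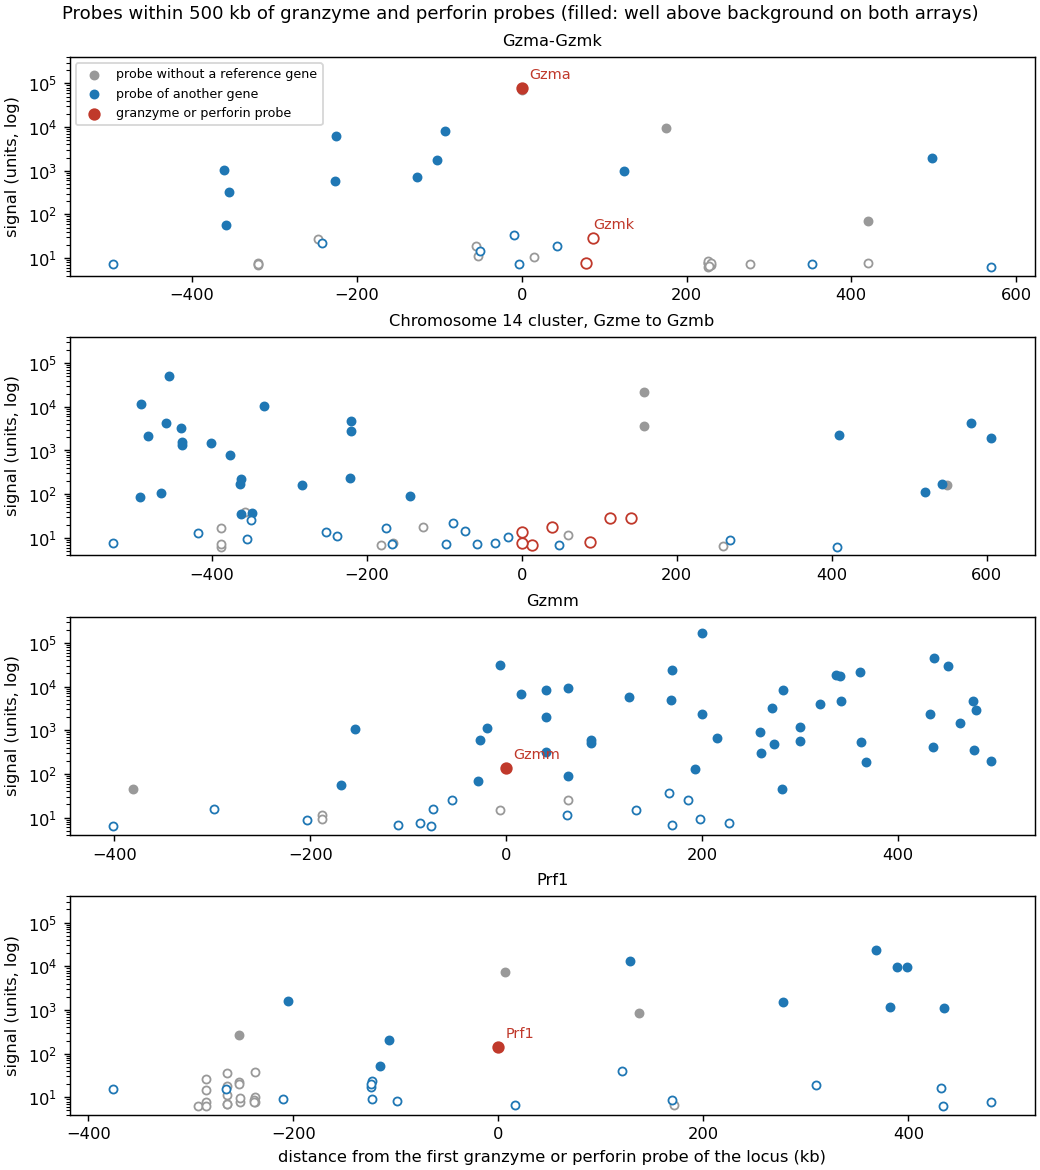
Signal (geometric mean of the 2 arrays, log axis) of every probe within 500 kb of the granzyme and perforin probes, by distance in kb from the first member probe of each locus, with filled points detected on both arrays and open points not. Red marks granzyme and perforin probes, blue other named genes and grey probes without a reference gene; the unnamed probe over Gzma lies under the Gzma point. The 7 chromosome 14 member probes are all open, and 13 of the 37 neighbours around Gzma and Gzmk are filled, against 46 of 65 around Gzmm. Long intergenic RNA probes make up 13 of the 37 and 2 of the 65.

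Promoters are shown because 5 cluster members have near-copies of each other's upstream sequence. Gzma, Gzmb, Gzmk, Gzmm and Prf1, some detected and some not, lack such a copy, and a link with the signal was not tested. The promoter sequences come from RefSeq on GRCm38.p6, with no conversion from the mm9 probe positions, and all 10 genes matched. The 250 bases before the Gzma start (chr13:113100982-113101231, minus strand) read as follows, with capitals on ACCACA, the core bound by RUNX factors, and on the motif TATATAA, whose first base is 29 bases before the start.
Gzma promoter: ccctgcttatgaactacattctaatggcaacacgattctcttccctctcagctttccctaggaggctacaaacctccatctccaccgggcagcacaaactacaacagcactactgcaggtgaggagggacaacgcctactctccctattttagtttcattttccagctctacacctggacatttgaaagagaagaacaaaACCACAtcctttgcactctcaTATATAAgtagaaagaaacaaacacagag

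Of the 10 genes, Gzma alone had TATATAA in its window of 300 bases (either strand), a motif held by 3.24% of all 32851 promoters of that length. ACCACA was found in 9 of the 10 genes, against 16.8% of all promoters, with Gzmk as the exception and Gzmm counted by 1 of its 2 listed starts. Those 9 include 5 near-copies and are not separate cases. Over the whole window of 300 bases, Gzmc, Gzmd, Gzme, Gzmf and Gzmg were pairwise identical at 79.0% to 93.7% of bases, the highest being Gzmd with Gzme. Between Gzma and each of the other 9 genes, 38.0% to 45.3% of bases were identical, and between Gzmb and the other 5 cluster members 41.7% to 45.0%. The corresponding 60 bases of the near-copies differ at a cyclic AMP response element, TGACGTCA, in capitals where it is intact.
Gzmc (chr14:56234667-56234726, minus strand): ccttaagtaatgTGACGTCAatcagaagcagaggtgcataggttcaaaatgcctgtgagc
Gzmd (chr14:56132607-56132666, minus strand): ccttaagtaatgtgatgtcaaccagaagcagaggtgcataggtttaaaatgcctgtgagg
Gzme (chr14:56120640-56120699, minus strand): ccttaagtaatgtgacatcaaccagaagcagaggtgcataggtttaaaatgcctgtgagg
Gzmf (chr14:56211442-56211501, minus strand): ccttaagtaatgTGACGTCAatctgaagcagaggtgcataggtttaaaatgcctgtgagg
Gzmg (chr14:56159609-56159668, minus strand): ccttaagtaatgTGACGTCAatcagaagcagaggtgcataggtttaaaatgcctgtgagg

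TGACGTCA was present in 3 of the 10 genes and in 1.79% of all promoters. The 3 are near-copies of each other and not separate cases. They were not well above background, like most of the 10 genes, and a link between motif and signal was not tested. TTTAAAA was present in 5 genes (8.74% of all promoters), namely Prf1 and the near-copies Gzmd, Gzme, Gzmf and Gzmg, which are not separate cases. TTCNNNGAA, searched as a STAT motif, was present in 2 (8.30%), Gzmm and Gzmb, and in Gzmb it lay past the start. TGANTCA, searched as an AP-1 motif, was present in 1 (7.81%). TATAAA (13.6%), AGGTGTGA, searched as a T-box motif (1.28%), and CACTTCCT, searched as an ETS motif (4.07%), were in none. Each was searched on both strands, and a match or its absence says nothing of binding in these cells.

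Of 11 genes for storing and processing granzymes, 10 were detected (90.9%, against 51.7% of all named genes), or 8 with the stricter demand that all probes for a gene pass. The lists were chosen with earlier results known, and their shares are a description. The detected genes include Ctsc, the dipeptidyl peptidase that removes the activation peptide of granzymes. It was at 0.91 ± 0.09 on the log2 scale, by 1 of its 2 probes. Srgn, the proteoglycan that packs granzymes, was at -0.00 ± 0.09 (n = 2 each). The lysosomal sorting receptor M6pr was at 2.98 ± 0.13, and Gnptab, which makes the sugar tag that it recognises, at 2.04 ± 0.17. Calr was at 5.92 ± 0.01, and Igf2r at -2.80 ± 0.34. Ctsh, an aminopeptidase that can also activate granzyme B in mice, was the member not well above background.

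Of 12 genes of granule exocytosis, 9 were detected (against 51.7% of all named genes). Rab27a, the small GTPase that docks granules, was at 0.63 ± 0.06, and Unc13d, the priming factor Munc13-4, at 1.58 ± 0.18. Snap23, a membrane SNARE, was at 3.58 ± 0.25, and Stxbp2, the syntaxin partner Munc18-2, was detected as well. Stx11, the syntaxin that Stxbp2 chaperones, was well above background on 1 array only. Vamp8 and Sytl2, a vesicle SNARE and a Rab27 effector, were not well above background.

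The serpin inhibitors were detected for 4 of 6 genes, within 1 gene of the share over all named genes (51.7%). Serpinb9, the inhibitor of granzyme B, was at -0.70 ± 0.05 although Gzmb itself was not detected. Serpinb6a was at 1.20 ± 0.06, Serpinb6b at 1.19 ± 0.15 and Serpinb1a at -1.94 ± 0.28. Serpinc1, antithrombin, was found on 1 array, and Serpinb9b was not well above background. All 9 listed substrates of granzyme A were detected. In human cells granzyme A acts on the SET complex, and of its members Set was at 7.45 ± 0.06, Hmgb2 at 7.62 ± 0.06, Nme1 at 7.31 ± 0.06, Apex1 at 5.93 ± 0.07, Anp32a at 4.12 ± 0.11 and Trex1 at 3.11 ± 0.15. All 6 listed substrates of granzyme B were detected, among them Bid at 4.46 ± 0.11. These substrates have general roles in dividing cells.

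Of 14 measured regulators of cytotoxic differentiation, 10 were detected (71.4%, against 51.7%). Tbx21, which encodes T-bet, was at 1.08 ± 0.04, Id2 at 2.64 ± 0.15, Stat5a at 3.29 ± 0.22 and Stat5b at 4.31 ± 0.01. Runx3, a factor of the CD8 lineage, was at -2.56 ± 0.35 by 1 of its 2 probes, near the limit of detection. Eomes, the second T-box factor of killer cells, Prdm1, Zeb2 and Stat4 were not well above background. Of 10 other effector genes, 7 were detected, against the same 51.7%. Ctsw, a killer cell cathepsin, was at 2.60 ± 0.15. Tnf was at 1.22 ± 0.39 and Lta at 1.58 ± 0.28, whereas Ifng, at -1.28 ± 1.11, differed strongly between the arrays. Fasl, the ligand of the other killing pathway, Mpeg1, a perforin relative, and Xcl1 were not well above background.

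Of 15 natural killer receptor genes, 5 were detected (33.3%, against 51.7% of all named genes), and 8 carried the looser mark of significant signal. They were Cd160 at 0.92 ± 0.55, Cd244 at 0.65 ± 0.78, Itgae at -1.99 ± 0.16, and the signalling adaptors Fcer1g at -2.02 ± 0.13 and Tyrobp at -2.91 ± 0.23. The highest signal of the 7 defining natural killer markers was 19.6 units on replicate 1 and 31.9 units on replicate 2. Of 16 mast cell and myeloid serine proteases, 4 were detected (25.0%, against 51.7%), namely Cma2, Elane, Prss57 and Tpsb2. Tpsb2 was at -0.39 ± 0.41, by 1 of its 2 probes. The looser mark was carried by 8 of the 16.

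**Figure D4:**
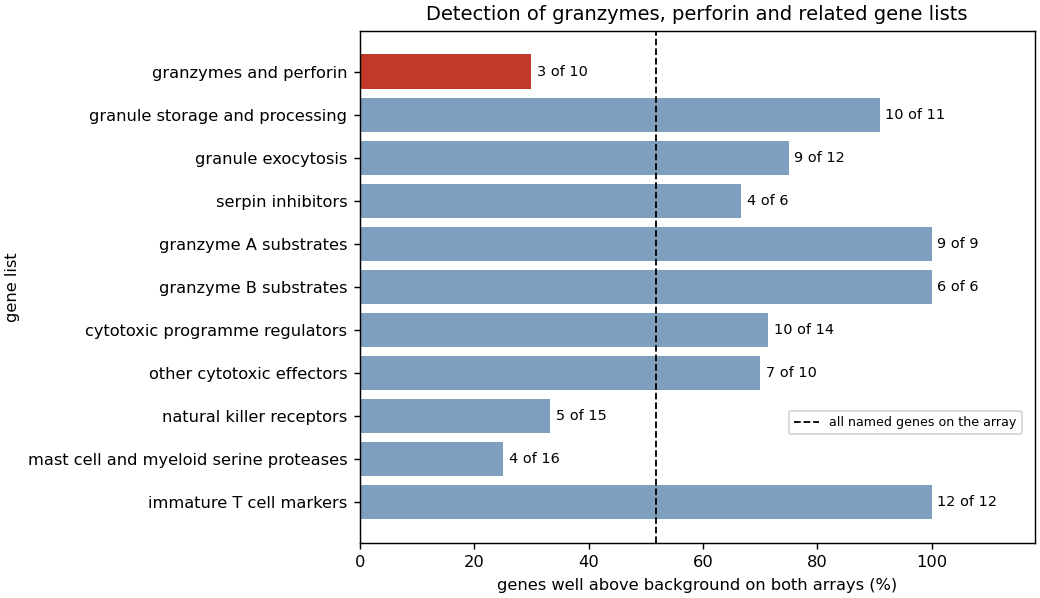
Share of genes well above background on both arrays for the 10 granzyme and perforin genes (red) and for 10 related gene lists (blue), with counts beside the bars and the share over all named genes, 51.7%, as a dashed line. Granzymes and perforin, at 3 of 10, lie left of the line together with natural killer receptors (5 of 15) and mast cell and myeloid proteases (4 of 16), and the remaining lists lie right of it.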

How the data were processed

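Total RNA of 2 P5424 samples was labelled with Cy3 and hybridised to Agilent mouse arrays, per the labels' protocols. The deposited intensity values came, per the file headers, from Agilent Feature Extraction 10.5.1.1, which subtracted a fitted background, detrended each array and set dim spots to a surrogate floor. The authors also deposited a table of log2 values for the same spots, whose normalization is not given in the sources used here. Both of its columns have a median of 5.18, and it served as an alternative only.

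From the scanner values, spots marked as outliers were left out (182 on replicate 1 and 186 on replicate 2), log2 signals were averaged per probe, and the 75th percentile of all non-control probes of the array was subtracted. That percentile was 324 units on replicate 1 and 299 on replicate 2. Detection needed the well-above-background mark on at least 50% of a probe's spots on both arrays. A gene's listed value is that of its brightest detected probe. Accessions or symbols were matched to a RefSeq gene table of GRCm38.p6, used for names only, which gave 22221 genes. All 12 member probes matched. Of 112 entries in 10 lists, 111 matched.

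Members and lists were chosen with earlier results of these data known. Named are all members, Gzmn, the first 6 detected and first 4 undetected genes of a list (some are not reported here) and any class of 5 or fewer, the 3 nearest named genes on each side of a locus, every probe within 100 kb of Gzma, the natural killer markers of the label check, and Cma1 as the end of its block. Prtn3 and Cfd are named to complete the listed myeloid proteases within 500 kb of Gzmm. With 1 group of 2 arrays there was no test. Precision is limited by there being 2 arrays. Normexp alternatives used limma 3.58.1 with an offset of 50. The percentile, median and quantile scalings were checked on simulated arrays with a known shift. Detection calls, counts and sequence searches were not checked in that way.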

Additional observations from a re-analysis of the deposited data

How the results depend on the processing

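Which granzymes count as measured depends on the mark used. With positive and significant signal on both arrays, a looser mark that 60.3% of all probes carry, 8 of the 12 probes and 8 of the 10 genes pass, where 3 probes and 3 genes passed the stricter mark. The same looser mark raised the natural killer receptors to 8 of 15 and the mast cell and myeloid proteases to 8 of 16, and the detected neighbours to 20 around Gzma and Gzmk and 29 around Prf1. Using either array alone gave 3 to 4 probes, the fourth being Gzmb on replicate 2, 76 to 78 detected list genes, and 103 to 104 detected neighbours of the loci. Detected neighbours numbered 101 within 500 kb, 19 within 100 kb and 171 within 1000 kb, which follows from the size of the window. The log2 level of Gzma, 8.00 in the setting reported and 7.99 to 8.01 with either array alone, is relative to the scale. It was 4.49 against the 75th percentile of detected probes, 11.99 against the array median, 7.71 after normexp and 8.08 in the authors' deposited table with the same centring. The difference of Gzma between the arrays was -0.01 in the setting reported and -0.24 against the array median, a scaling that moves the median of all detected probes by -0.23. Of the values printed as answers to a comparison, 27 others stayed within their spread or within 1.5 times the count. Of these, 1 changed sign, the difference of Gzma between the arrays, at 0.02 against the 75th percentile of detected probes, and the difference of Prf1 likewise turned from -0.06 to 0.02 after normexp, so neither difference has a settled direction. Probes under about 40 units lie at the edge of detection on both arrays, so no order among Gzmb, Gzmc, Gzmg, Gzme and Gzmk can be read from them. No paired analysis was possible because there is 1 group with 2 samples.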
